A study of Mus musculus with 4 samples.

Results

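Regulatory T cells, the type named Treg, were 1 of 21 cell types that the authors named among immune cells sorted as group 2 innate lymphoid cells (ILC2s) from mouse liver and lung. The cells came from wild-type, 8-week-old BALB/c mice that received 0.5 µg recombinant IL-33 (rIL-33) or PBS by intraperitoneal injection on each of 5 days. Each organ under each treatment gave 1 library, 4 in all. The paper states that tissues of several mice were pooled in each group. The sort kept cells that were negative for lineage proteins, among them CD3e and TCRb, and positive for CD127, Thy1 and the IL-33 receptor ST2. The members described here are the 150 genes listed for Treg in the authors' table of cell type markers, of 1679 genes in that table. A gene is called listed for a type where the authors found its average higher in that type than in all other cells. The 4 libraries were pooled in every value, so organ and treatment were not compared. No value had a replicate, and the tables give no depth.

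Regulatory T cells are CD4 T cells that hold other immune responses in check. Their identity rests on the transcription factor FOXP3. They carry CTLA-4, which takes the costimulatory ligands CD80 and CD86 away from other T cells, and a high-affinity IL-2 receptor. In tissues, part of them carry ST2 and make amphiregulin, encoded by *Areg*, a growth factor that acts on epithelium, and they share these features with ILC2s.

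Each value below is a share of cells, the percentage of the cells of a type with a value above 0 for the gene, as the authors deposited it. These shares are not shares of cells with a transcript. *Foxp3* had a value above 0 in 41.5% of all cells outside Treg, and *Cd3e*, a chain of the T cell receptor complex, in 83.5% of all sorted cells. In the authors' second table, which holds ILC2 subclusters alone, *Cd3e* was above 0 in 5.8% of ILC2s, although the type ILC2 made up 43.2% of the sorted cells. For 116 genes listed for ILC2 and found in both tables, the share in ILC2 was a median of 16.8 percentage points higher in the first table than over ILC2s in the second (range -6.1 to 69.1). Values are therefore compared within a table.

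Treg made up 2.06% ± 0.0235 (standard error of the least squares fit) of the sorted cells. The size was solved from the shares, since a gene listed for several types must have 1 share over all cells whichever listing gives it. CD4, the T cell type nearest by name, made up 3.16% ± 0.0184. These errors are those of the fit and do not cover variation between animals.

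Marker genes of the label are given next. The authors named the types from marker genes of these same cells, so the values describe the label and are no independent check of it. *Foxp3* (GRCm38 chromosome X, 7573644 to 7595245, plus strand) was above 0 in 71.9% of Treg cells, and no other type listed it. *Ctla4* (chromosome 1, 60887000 to 60915832, plus strand) was above 0 in 91.6% of Treg cells against 48.7% of all other cells, the widest gap among the 150 genes. *Tnfrsf4* (chromosome 4, 156013843 to 156016612, plus strand), which encodes the costimulatory receptor OX40, was above 0 in 76.8% of Treg cells against 47.0%. *Cd4* was above 0 in 64.2% of Treg cells against 54.2%, but stood higher in Macrophage (78.4%), ILC1_ILC3 (77.0%) and CD4 (67.3%). *Trac*, the constant region of the T cell receptor alpha chain, was above 0 in 87.3% against 70.7%. *Areg*, on the plus strand of chromosome 5 from 91139599 to 91148432, was also a listed gene, but its shares were nearly the same on both sides, 45.5% and 44.0%. *Il2ra*, the high-affinity chain of the IL-2 receptor, was not listed for Treg. It was listed for 6 other types, among them ILC2 at 81.0%, and was above 0 in 43.4% of the cells of the types that did not list it, Treg included.

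The sequences around RefSeq starts of the 3 genes that lead these markers are shown because the genes were listed for Treg together. They are RefSeq promoters of build GRCm38.p6, 300 bases each, most of them before the annotated start, on the gene's strand. The RefSeq table holds 2 starts for *Foxp3*. The gene spans above are from GENCODE and cover all its transcripts, so the windows of *Foxp3* and *Ctla4* lie inside those spans, downstream of their first base. Capitals mark matches to TGGAAA, the core of NFAT sites, on either strand. The other motifs searched on both strands, forkhead GTAAACA, AP-1 TGANTCA and ETS CCGGAA, had no match in these 4 windows, which says only that these letters are not there.
Foxp3, first start, chrX:7579426-7579725: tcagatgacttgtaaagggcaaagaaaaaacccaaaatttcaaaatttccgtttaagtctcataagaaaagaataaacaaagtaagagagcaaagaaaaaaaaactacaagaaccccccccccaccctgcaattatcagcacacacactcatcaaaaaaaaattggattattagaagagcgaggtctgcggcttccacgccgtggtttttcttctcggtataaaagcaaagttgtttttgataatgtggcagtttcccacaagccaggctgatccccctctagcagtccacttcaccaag
Foxp3, second start, chrX:7580233-7580532: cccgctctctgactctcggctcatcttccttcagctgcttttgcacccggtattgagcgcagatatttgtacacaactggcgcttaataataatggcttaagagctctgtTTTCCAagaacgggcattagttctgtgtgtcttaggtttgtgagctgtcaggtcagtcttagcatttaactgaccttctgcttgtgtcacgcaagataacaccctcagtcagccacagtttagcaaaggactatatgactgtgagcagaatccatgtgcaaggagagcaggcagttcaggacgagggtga
Ctla4, chr1:60908775-60909074: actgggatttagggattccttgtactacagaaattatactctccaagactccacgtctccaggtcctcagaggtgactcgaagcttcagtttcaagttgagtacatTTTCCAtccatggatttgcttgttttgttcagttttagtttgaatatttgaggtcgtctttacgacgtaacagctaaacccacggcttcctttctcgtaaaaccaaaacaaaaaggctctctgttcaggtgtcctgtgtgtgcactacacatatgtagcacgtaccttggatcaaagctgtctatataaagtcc
Tnfrsf4, chr4:156013445-156013744: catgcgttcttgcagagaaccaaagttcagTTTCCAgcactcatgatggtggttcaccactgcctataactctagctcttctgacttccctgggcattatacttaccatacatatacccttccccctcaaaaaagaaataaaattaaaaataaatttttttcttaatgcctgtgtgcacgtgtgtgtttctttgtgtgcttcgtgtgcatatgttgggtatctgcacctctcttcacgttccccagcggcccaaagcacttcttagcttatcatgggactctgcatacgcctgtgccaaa

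Of the 150 genes, 112 had a promoter in the RefSeq table. The NFAT letters were in 31 of them (27.7%) against 23.9% of 27025 genes with a promoter, the ETS letters in 14.3% against 16.7%, the AP-1 letters in 7.14% against 8.97% and the forkhead letters in 2.68% against 4.05%. A match is a description of letters and not a binding site.

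The authors tested 2000 features for each type, and 7.50% of them were listed for Treg. A higher average did not always come with a higher share. The share of Treg cells was above that of all other cells for 73 of the 150 genes (3.65% of the features tested) and below it for 77 (3.85% of the features tested, 51.3% of the members), against 16.3% below over all 4422 listings of the table. T cell types fell on both sides. The part below was 76.3% for CD4, 74.5% for gdT_Naive, 60.6% for CD8_Effector and 57.1% for CD8_Naive, but 27.6% for gdT_TypeI, 4.19% for gdT_TypeIII_CD163l1, 1.52% for gdT_TypeIII_ITGAE and 0 for gdT_TypeII. Over the 150 genes the difference had a median of -0.4 percentage points and ran from -28.8 to 42.9. It lay within 5 points for 55 genes, was at least 10 points above for 27 and at least 10 points below for 21.

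**Figure D1:**
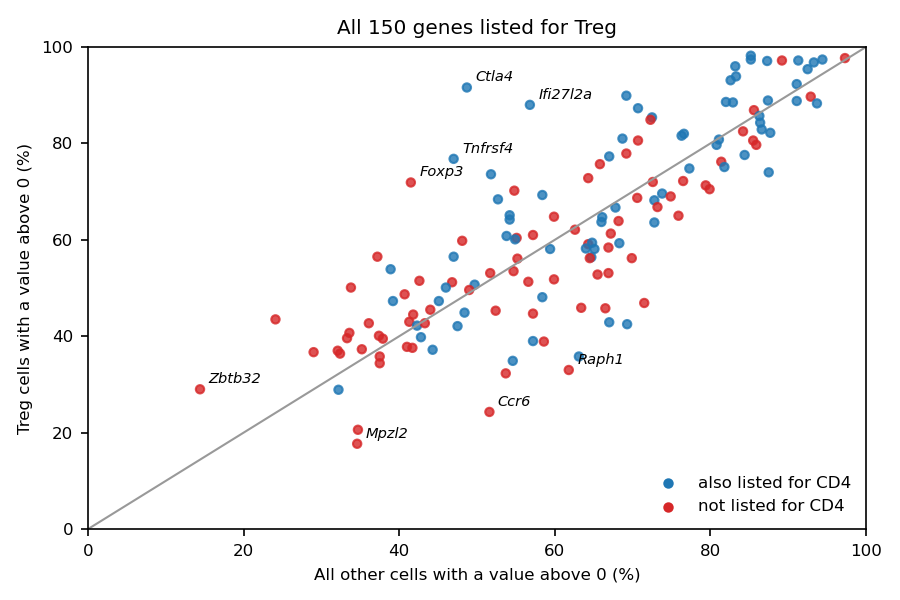
Each point is 1 of the 150 genes listed for Treg, with the percentage of all other cells with a value above 0 on the x axis and that of Treg cells on the y axis; the line marks equal shares, blue points are also listed for CD4 and red points are not. *Ctla4*, *Ifi27l2a*, *Tnfrsf4* and *Foxp3* lie farthest above the line, and 77 genes lie below it.

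The genes with the widest gap in favour of Treg were *Ctla4*, *Ifi27l2a*, *Foxp3*, *Tnfrsf4*, *Ass1* and *Itgb1*, the 6 genes at 20 points or more. *Ifi27l2a*, an interferon-inducible gene, was above 0 in 88.0% of Treg cells against 56.8%. *Ass1*, which encodes argininosuccinate synthase of arginine synthesis, was above 0 in 73.6% against 51.8%. *Itgb1*, the integrin beta 1 chain, was above 0 in 89.9% against 69.2%. These genes differ in how far they were shared. *Itgb1* was listed for 10 types, 4 of them above Treg and Basophil level with it at 89.9%, whereas for *Ctla4*, *Tnfrsf4* and *Ass1* Treg had the highest share of the types that listed the gene.

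The next genes in this order were *Gpm6b*, *Ppil1*, *Trac*, *Gbp3*, *P4ha1*, *Izumo1r*, *Pou2f2*, *Zbtb32* and *Cd3g*, with gaps from 19.4 down to 13.0 points. *Izumo1r*, which encodes the folate receptor family protein FR4 of regulatory T cells, was above 0 in 70.2% of Treg cells against 54.8%. *Gpm6b*, a membrane proteolipid gene, was above 0 in 43.5% against 24.1%. *P4ha1*, a subunit of collagen prolyl hydroxylase, was above 0 in 68.4% against 52.7%. *Zbtb32*, a zinc finger repressor gene, had the lowest shares of them, at 29.0% against 14.4%.

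**Figure D2:**
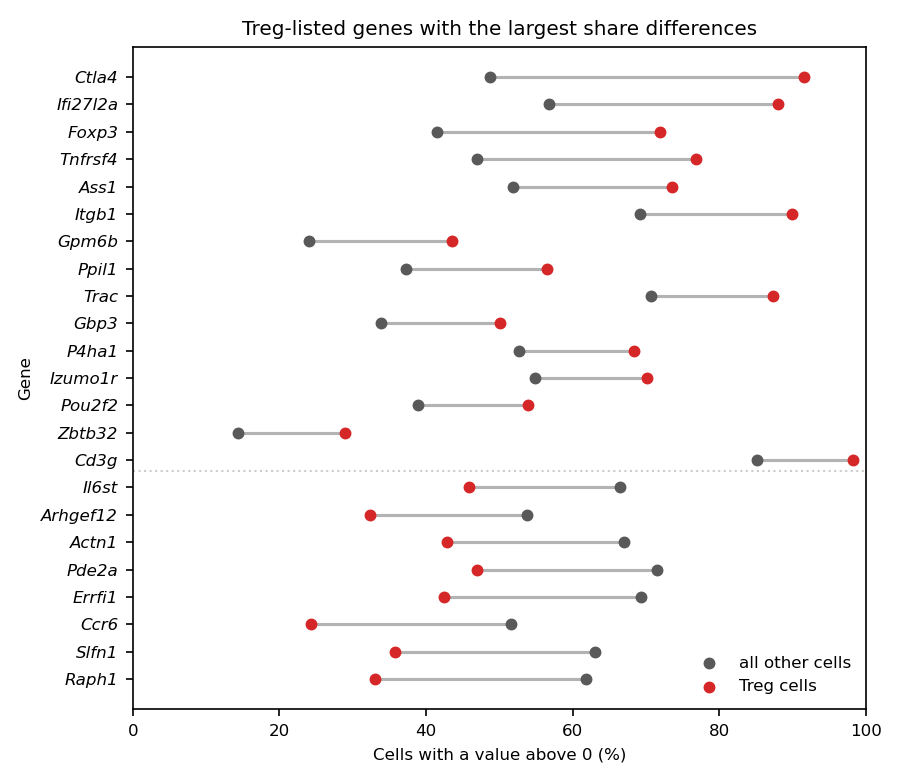
Percentage of cells with a value above 0 (x axis) for the 15 genes with the widest gap in favour of Treg and, under the dotted line, the 8 genes with the widest gap against it; red points are Treg cells and grey points all other cells. *Ctla4* spans 48.7% to 91.6%, and *Raph1* spans 33.0% to 61.8% the other way.

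The solved size gives the part of all cells above 0 for a gene that lay inside Treg, which would be 2.06% for a gene spread evenly. It was 4.06% for *Zbtb32*, 3.80% for *Ctla4*, 3.66% for *Gpm6b*, 3.51% for *Foxp3* and 3.32% for *Tnfrsf4*. *Ifi27l2a*, *Ppil1*, *Gbp3*, *Ass1* and *Pou2f2* followed, from 3.15% to 2.83%. Even for these genes most cells above 0 lay outside Treg.

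At the other end, 8 listed genes had a share in Treg at least 20 points below that of other cells. *Raph1*, a regulator of actin and cell protrusion, was above 0 in 33.0% of Treg cells against 61.8%. *Ccr6*, the receptor for the chemokine CCL20, was above 0 in 24.3% against 51.6%, and *Il6st*, the shared signalling chain of IL-6 family receptors, in 45.8% against 66.5%. The other 5 were *Slfn1*, *Errfi1*, *Pde2a*, *Actn1* and *Arhgef12*, at 32.3% to 46.9% of Treg cells. The tables do not show how high a gene stood in the cells with a value above 0, so the higher average of these genes is given here only as the authors' listing.

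Lists of related genes were set beside the members. Of the 327 genes in 25 lists, 226 were in the table and 61 were listed for Treg (27.0%), against 8.93% of all 1679 genes in the table, which is the background for each list below. Some lists were built around genes known for Treg, so that count is a description.

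Genes known for regulatory T cells were listed for Treg more than for any other type. Of 26 genes, 15 were in the table and 11 were listed for Treg, all with a share above that of other cells. ILC2_2, ILC3 and gdT_TypeIII_CD163l1 listed 5 each of the 15, gdT_TypeIII_ITGAE listed 4, CD4 listed 3 and ILC2 listed 2. Besides *Foxp3*, *Ctla4*, *Tnfrsf4* and *Izumo1r*, they included *Icos*, a costimulatory receptor, at 85.4% against 72.5%, and *Nrp1*, neuropilin 1, at 59.8% against 48.1%. *Capg*, an actin-capping protein gene, was at 75.7% against 65.8%, and *Ikzf2*, which encodes the transcription factor Helios, at 77.9% against 69.2%. The gaps were narrower for *Dusp4*, a phosphatase of MAP kinases, at 40.7% against 33.6%, for the orphan receptor gene *Gpr83* at 37.0% against 32.1%, and for *Lrrc32*, which encodes the TGF-beta docking protein GARP, at 51.2% against 46.8%. *Il2ra*, *Tnfrsf9*, *Cd81* and *Socs2* were in the table without a listing for Treg. *Tnfrsf18*, *Tigit*, *Il10* and 8 more were in no listing of any type.

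For several of these genes another type stood higher. Among the types that listed *Icos*, ILC3 stood at 89.9% and Treg came next. *Ikzf2* was highest in gdT_TypeIII_CD163l1 at 91.7%, and *Nrp1* and *Lrrc32* in Endothelium cell at 90.0% and 55.4%. *Capg* was listed for 8 types and Treg was the lowest of them. *Ctla4* was at 60.4% in ILC2_2 and 40.0% in CD4, the other types that listed it, and *Tnfrsf4* was at 33.3% in CD4, the only other type that listed it.

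**Figure D3:**
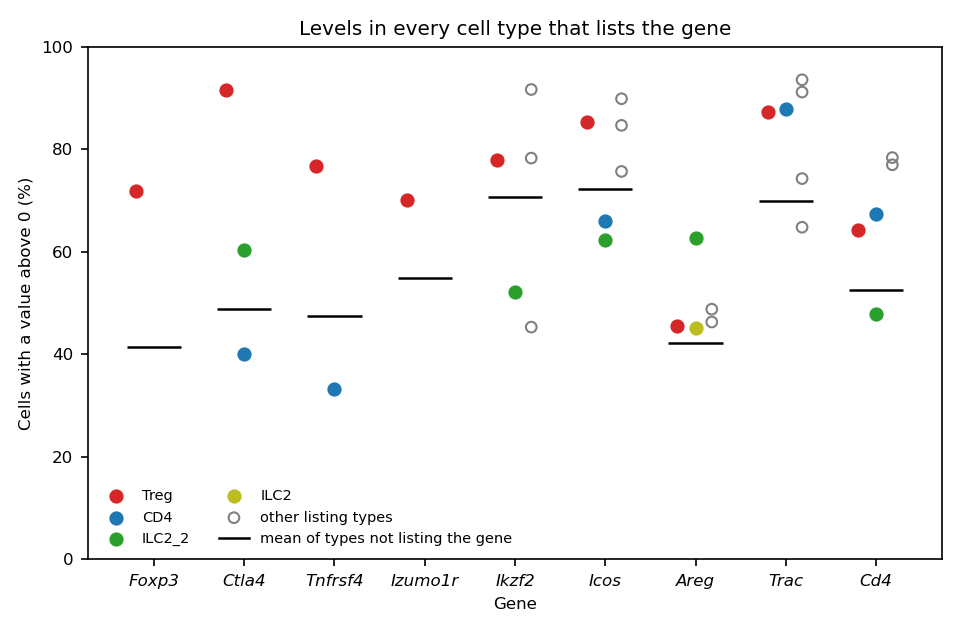
Percentage of cells with a value above 0 (y axis) for 9 marker genes in every cell type that lists the gene, with Treg, CD4, ILC2_2 and ILC2 in colour, other types as open circles and the mean over the types that do not list the gene as a black line. Treg is the highest point for *Ctla4* and *Tnfrsf4*, and the only type plotted for *Foxp3* and *Izumo1r*, which no other type listed. It lies among the other types for *Ikzf2*, *Icos*, *Areg*, *Trac* and *Cd4*.

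Fewer genes known from regulatory T cells that live in tissues were listed for Treg, a difference that was not tested. Of 17 genes, 13 were in the table and 4 were listed for Treg, against 7 for ILC2 and 6 each for ILC2_2 and gdT_TypeIII_CD163l1. *Areg* was listed for 5 types in all. Its share was 62.7% in ILC2_2, 48.8% in gdT_TypeIII_CD163l1, 46.3% in gdT_TypeII, 45.5% in Treg and 45.2% in ILC2, so that 4 of the 5 lay within 3.6 points. *Irf4*, a transcription factor of effector T cells, was above 0 in 36.4% of Treg cells against 32.4%. *Itgae*, the CD103 integrin chain, was at 35.8% against 37.5%, and *Rora*, a nuclear receptor gene, at 76.2% against 81.4%. *Il1rl1*, which encodes the ST2 used in the sort, was listed for gdT_TypeII, ILC2 and ILC2_2 and not for Treg, and neither *Gata3* nor *Klrg1* was listed for it. *Il1rl1* was above 0 in 45.0% of the cells of the types that did not list it.

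Genes of the alpha beta T cell were listed almost throughout, with 13 of the 14 in the table for Treg, 13 for CD4, 12 for CD8_Naive and 11 each for CD8_Effector and the gamma delta types gdT_Naive and gdT_TypeI. *Cd3g*, *Cd3e* and *Cd3d*, the CD3 chains, were above 0 in 98.2%, 96.0% and 93.9% of Treg cells, against 85.2%, 83.2% and 83.3% of other cells. The sort was meant to leave out cells with CD3e or TCRb on their surface. *Trbc2*, a constant region of the T cell receptor beta chain, was at 97.2% against 91.3%, but *Trbc1*, the alternative constant region, was at 74.0% against 87.5%. *Cd28*, the main costimulatory receptor, was at 88.6% against 82.0%. Gamma delta T cell genes (0 of 10 in the table) and CD8 genes (0 of 2) were not listed for Treg.

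Of 11 genes of naive and recirculating T cells in the table, 5 were listed for Treg, while CD4 and CD8_Naive listed all 11. *Klf2* and *S1pr1*, which govern exit from tissue, were above 0 in 97.4% of Treg cells against 85.2%, and in 81.0% against 68.7%. *Ms4a4b* and *Ms4a6b*, membrane protein genes of T cells, were at 97.1% against 87.3% and at 93.1% against 82.6%. *Ccr7*, the lymph node homing receptor, was listed but lower in share, at 63.6% against 72.8%. *Lef1*, *Tcf7*, *Satb1*, *Dapl1* and *Igfbp4* were among those listed for CD4 and not for Treg. For *Tcf7*, a transcription factor of naive T cells, the CD4 share was 91.3%.

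Among costimulatory and inhibitory receptors, 7 of 15 in the table were listed for Treg, against 4 for CD4. Of those with a share above other cells, *Ctla4*, *Icos*, *Izumo1r* and *Tnfrsf4* were already counted among genes known for regulatory T cells. The other was *Cd28*, itself in the alpha beta T cell list, so the count of 7 is not separate from the earlier lists. *Cd27*, a TNF receptor family member, was at 69.0% against 74.9%, and *Cd200*, an inhibitory ligand, at 20.6% against 34.7%. *Tnfsf8*, the CD30 ligand, was the only TNF superfamily ligand listed of 6 in the table, at 38.9% against 58.6%.

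Of 7 NF-kB genes in the table, 5 were listed for Treg, against 4 each for Basophil, ILC1_ILC3 and ILC2_2 and 2 for CD4. *Traf1*, a signal adapter of TNF receptors, was above 0 in 80.6% of Treg cells against 70.7%. *Nfkbia* and *Tnfaip3*, the feedback inhibitors IkB-alpha and A20, were near saturation at 96.8% against 93.3% and 95.4% against 92.5%. *Rel*, an NF-kB subunit, was at 62.1% against 62.6%, and *Nfkbiz* at 70.5% against 79.9%. Of the genes of the IL-2 receptor and its STAT5 feedback, 1 of 8 was listed, the kinase gene *Pim1*, at 97.2% against 89.2%.

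Of 13 tabulated interferon response genes, 6 were listed for Treg, 3 with a share above other cells and 3 below. *Ifi27l2a* stood highest, *Igtp* and *Iigp1*, interferon-inducible GTPases, were at 50.7% against 49.7% and 37.3% against 35.2%, and *Gbp2* and *Irf1* had shares below other cells, at 39.0% and 63.9% against 57.2% and 68.2%. gdT_Naive listed 7 of these 13 and CD4 listed 4. *Gbp3*, a guanylate-binding protein gene outside the list, was listed for Treg alone, at 50.1% against 33.8%.

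All 4 chemokine receptor genes listed, of 14 in the table, had a share below other cells. Besides *Ccr6* and *Ccr7* they were *Ccr4*, a receptor of skin and lung homing, at 28.9% against 32.2%, and *Cxcr4*, the CXCL12 receptor, at 84.3% against 86.4%. Of 10 integrin and tissue exit genes 6 were listed, among them *Klf2*, *S1pr1* and *Itgae*, which also stood in lists above. *Itga4*, the alpha 4 chain, was at 65.0% against 75.9%, and went the other way from *Itgb1*. Of 15 dissociation stress and immediate early genes 5 were listed, none of them from the AP-1 family (0 of 6), with gaps from -6.2 points for *Ier5* to 3.0 points for *Btg2*.

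Marker lists of other cells the sort could hold were not listed for Treg, at 0 of 17 ILC2 genes, 0 of 15 NK cell and ILC1 genes, 0 of 12 myeloid and basophil genes, 0 of 18 proliferation genes and 0 of 1 gene of hepatocytes and lung epithelium. The exceptions were 1 gene in each of 3 lists. *Ighm*, the IgM heavy chain, was at 52.8% against 65.5%, *Pecam1*, which encodes CD31, at 56.5% against 47.0%, and *Ccr6* stood in the list of ILC3 and type 17 genes. Of the GIMAP family, GTPases of lymphocytes, 1 of 2 was listed (*Gimap4*), and of the MHC class I and immunoproteasome genes 0 of 1. A missing listing says that a gene was lower, similar, rare or untested, and does not separate these cases.

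For Treg alone, 10 of the 150 genes were listed (6.67%), against 14.3% of the 4422 listings of all types. Counted by gene, 634 of the 1679 genes of the table (37.8%) were listed for a single type. They were *Foxp3*, *Gpm6b*, *Gbp3*, *Izumo1r*, *Zbtb32*, *Gpr83*, *Rgs16*, *Zdhhc23*, *Arl5a* and *Mpzl2*. The first 7 had a share above other cells. *Rgs16*, a regulator of G protein signalling, was at 44.5% against 41.8%. *Zdhhc23*, *Arl5a* and *Mpzl2*, which encode a palmitoyltransferase family member, a small GTPase and an adhesion protein, were below, with *Mpzl2* at 17.7% against 34.6%. The median Treg gene was listed for 5 types. Among the 140 genes that other types listed too, Treg had the highest share for 10 and the lowest for 47, counting only types that listed the gene. No such counts were made for the other types, so these have no background.

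Over all listings, the type that shared most genes with Treg was CD4. It listed 73 of the 150 genes, 48.7% of the Treg list and 55.7% of its own, where it listed 6.55% of all features. gdT_Naive shared 67 (44.7% of the Treg list and 45.0% of its own, with 7.45% of all features listed) and CD8_Naive shared 60 (40.0% and 30.3%, with 9.90%). gdT_TypeIII_ITGAE shared 46 (9.85% of all features listed) and ILC2_2 shared 39 (10.0%). CD8_Effector shared 28 (4.70%), ILC2 shared 10 (6.80%) and gdT_TypeII shared 4 (1.40%), the last being 14.3% of its own list. Every list here was made against all other cells of the same 4 libraries, so the lists share most of their comparison cells. The order depended on the listings whose share lay below that of other cells. Among listings with a share above, gdT_TypeIII_ITGAE shared 24 genes (32.9% of the 73 Treg genes and 12.4% of its own) and CD4 shared 19 (26% and 61.3%). Their lists were then of unequal length, at 193 genes (9.65% of the features) and 31 genes (1.55%).

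**Figure D4:**
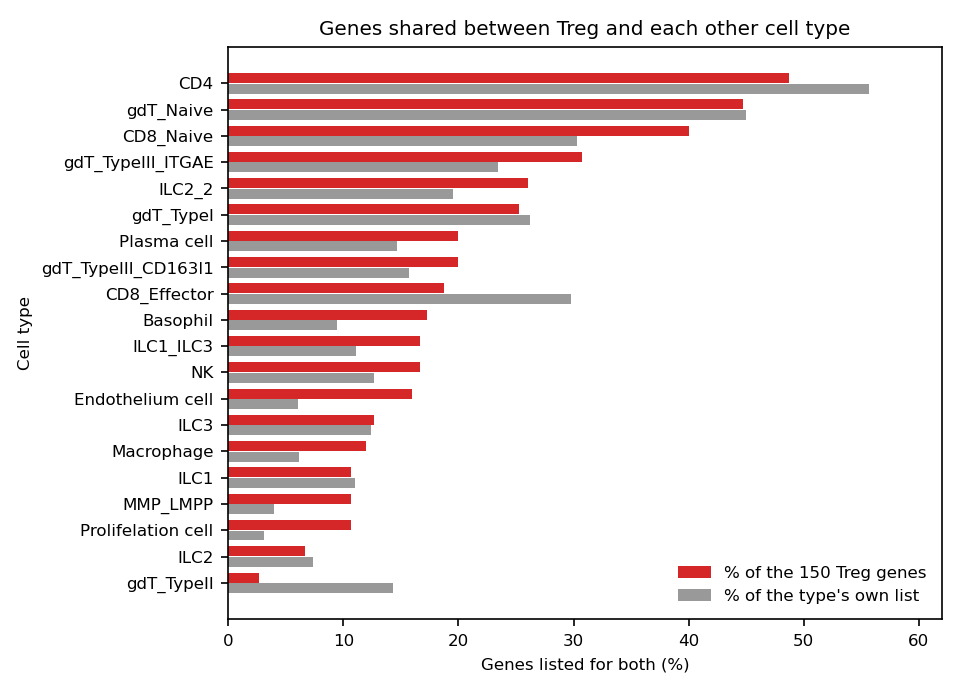
Genes listed both for Treg and for each of the 20 other cell types (y axis), as a percentage of the 150 Treg genes (red) and of that type's own list (grey). CD4, gdT_Naive and CD8_Naive lead with 48.7%, 44.7% and 40.0% of the Treg list, and ILC2 stands at 6.67%.

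Over the 73 genes listed for both, the share in Treg was above that in CD4 for 45 and below it for 28, with a median difference of 2.9 points. The widest gaps towards Treg were *Ctla4* (91.6% and 40.0%), *Tnfrsf4* (76.8% and 33.3%), *Itgb1* (89.9% and 58.4%), *P4ha1* (68.4% and 37.8%) and *Pou2f2*, which encodes the transcription factor OCT2 (53.9% and 25.3%). The widest towards CD4 were *Slfn1* (35.8% and 52.4%), *Trib2* (47.3% and 63.7%), *Actn1* (42.9% and 53.3%), *Dusp10* (69.6% and 79.3%) and *Ccr7* (63.6% and 70.6%). *Cd4* itself was at 64.2% in Treg and 67.3% in CD4. With 1 library a group, all pooled, none of these differences was tested.

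Against CD8_Effector, *S1pr1* (81.0% and 62.6%), *Cd5* (77.3% and 60.1%), *Itgb1*, *Slamf6* and *Cd28* were higher in share in Treg. *Itga4* (65.0% and 83.7%), *Gimap4*, *Cd6*, *Lck* and *Trac* were lower. The 10 genes shared with ILC2 were lower in Treg for 8, led by *Arhgef12* (32.3% and 62.4%), *Nfkbiz* (70.5% and 88.8%), *Rora*, *Tiam1* and *Rgs2*. *Dst* (42.7% and 38.9%) and *Areg* (45.5% and 45.2%) were the exceptions. All 4 genes shared with gdT_TypeII, *Ccr7*, *Klf6*, *Zfp36l1* and *Areg*, had a lower share in Treg.

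Treg genes were unevenly spread over the ILC2 subclusters. Of the 150 genes, 90 (60.0%) were also listed for at least 1 of the 10 ILC2 subclusters, against 48.8% of all genes of the cell type table. Subcluster 1 listed 34 and subcluster 8 listed 30, where these subclusters listed 6.85% and 6.73% of all genes of the cell type table. Subcluster 3 listed 25 and subcluster 5 listed 24 (7.27% of all genes each). These percentages are for all listings. Where only listings with a share above other cells were kept in both tables, subclusters 3 and 5 listed 9 and 5 of 73 Treg genes. Subclusters 1 and 8 then listed 22 and 20. The part of all genes that each subcluster listed under that filter was not computed, so these lower counts have no background. Over all listings, subcluster 4 listed 20, or 13.3% of the Treg genes against 26.9% of all genes, and subcluster 0 listed 4, or 2.67% against 5.24%. *Foxp3*, *Tnfrsf4*, *Izumo1r* and *Ifi27l2a* were listed for no subcluster.

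Several leading Treg genes were among them. *Ctla4* was listed for 5 subclusters, with its highest share in subcluster 8 at 73.0% against 33.5% of the other ILC2s. *Itgb1* was above 0 in 69.3% of subcluster 1 and 71.9% of subcluster 8, against 42.5% and 47.7%, and *Ass1* in 75.7% and 59.6%, against 31.9% and 40.5%. *Traf1* was at 82.0% and 89.9% in the same pair, against 59.9% and 64.2%. Both *Itgb1* and *Traf1* were also listed for subcluster 5, there with the lower share, at 32.2% against 48.5% and 32.0% against 65.6%. *Gbp3*, which no cell type but Treg listed, was above 0 in 41.6% of subcluster 8 against 10.3% and in 33.7% of subcluster 4 against 8.2%. *Icos* was listed for subcluster 3 alone, at 74.5% against 64.1%. These shares come from the second table and are not on the scale of the Treg values.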

How the data were processed

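Libraries of the 4 sorted samples were made with droplet-based 3' chemistry. The authors aligned reads with Cell Ranger to mm10 (submitters' processing notes), removed doublets and dead cells by flow cytometry and cells with few detected genes, scaled and log transformed the counts, clustered cells in Seurat and named types by hand. No computational doublet caller was described. The authors deposited, for each cluster, the fraction of cells with a value above 0 inside it and in all other cells, rounded to 3 decimals and given here as percentages. The Seurat assay behind the values is not given in the sources used here. The authors' deposited log2 fold changes and p-values come from their own comparisons and their values were not used. The sign of the former was checked (0 at or below 0), and the ratio of adjusted to raw p-value gave the 2000 features tested.

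Cluster sizes came from a least squares fit to the 1045 genes that 2 or more types listed (Python 3.11.15, numpy 2.4.6, pandas 2.3.3), a step tested on simulated data with known sizes. Positions are from GENCODE on GRCm38, the build of mm10. Groups were taken from the labels. No test between groups was possible, since each held 1 library pooled with the others. The tables give neither depth nor cell numbers, the cell numbers in the paper were not used, and no interval was computed. The tables held 0 further columns of per-sample values.

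The members and gene lists were chosen with earlier results of these data known. Genes were named by a rule: those with the largest gap in either direction, the largest part of their cells inside Treg, all listed genes of the Treg, tissue Treg and costimulatory lists, those listed for Treg alone, up to 4 of each other list, and the 5 widest gaps each way against CD4, CD8_Effector, gdT_TypeII and ILC2. Genes outside it, such as those not listed for Treg, were named after their values were seen. Alternatives changed which listings counted and how sizes were fitted. Some genes of the lists are not reported here by name.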

Additional observations from a re-analysis of the deposited data

How the results depend on the processing

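Of 15 values under settings that changed what was counted or fitted, 5 stayed within their limit and 10 moved. The size of Treg lay between 2.06% and 2.07% under each other fit. Leaving out ribosomal and mitochondrial genes was void, since the tables hold 0 of them. Keeping only listings with a share above that of other cells left 73 Treg genes, 19 shared with CD4, 37 from the gene lists, 44 found in an ILC2 subcluster and 22 in the subcluster that shared most. With a share at least 0.1 above, these were 27, 11, 18, 15 and 7. These falls follow from the stricter thresholds, and the genes listed for Treg alone were 11 and 8 under them. Subcluster 1 shared most under every setting, followed by subcluster 8, which was level with subcluster 4 at 5 genes under the strictest. This order is of counts alone, since the part of all genes each subcluster listed under the stricter settings was not computed. No paired analysis was possible because there was 1 library for each organ and treatment, all pooled in the tables. CD4 shared most genes over all listings and at the stricter threshold (11), but not among shares above other cells, where gdT_TypeIII_ITGAE, with a longer list, shared 24. The tables hold no cell numbers or depth, and no difference of shares was set against its counting error. The paper states cell numbers for this clustering, which were not used here.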

Other observations

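Further members outside the lists are given here as values, and were picked after those values were seen. Of 5 genes of regulators of G protein signalling in the table, 4 were listed for Treg, against 8.93% of all genes of the table, with 2 listed for ILC2 and 1 for CD4. They were *Rgs16* at 44.5% of Treg cells against 41.8% of other cells, *Rgs1* at 82.5% against 84.2%, *Rgs10* at 63.7% against 66.0% and *Rgs2* at 80.6% against 85.5%. The adhesion and signalling receptors *Cd2*, *Slamf1* and *Slamf6* had shares of 88.5%, 60.8% and 81.6%, against 82.9%, 53.8% and 76.3%, while *Sh2d1a*, which encodes the adapter SAP of the SLAM receptors, stood at 56.2% against 64.5%. *Cd86*, the ligand that CTLA-4 binds, was itself listed for Treg, at 39.5% against 37.9%, and *Tox*, a nuclear factor of T cell development, was at 60.4% against 55.1%.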
